A study of Mus musculus with 20 samples.

Results

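C1qa, C1qb and C1qc, the genes of the A, B and C chains of complement C1q, were described across macrophages cultured from B cells, macrophages cultured from monocytes and cells sorted from tumors of mice. The members were chosen by gene name and are 3 of the 15855 genes of the culture table and 3 of the 15333 genes of the tumor table, and all 3 passed the filter on low values. The single-cell RNA-seq (scRNA-seq) data comprised 8 libraries of mouse cells. B-MF (2 libraries, replicates 1 and 2) were macrophage-like cells grown from bone marrow (BM) B cells, and Mo-MF (2 libraries, replicates 1 and 2) were grown from BM monocytes. By the study's methods both were kept for 7 days in medium conditioned by 4T1.2 cells, a mouse mammary cancer line, and no library of uncultured B cells or monocytes was analysed here. TAM (4 libraries, called here libraries 2, 3, 4 and 5 after the tumor numbers in the table) were cells sorted as macrophages from 4T1.2 tumors in BALB/c mice. The study's methods give young female mice (8 to 12 weeks old) throughout, and C57BL/CJ or BALB/CJ as the source of cultured B cells, without saying which of these strains the 4 culture libraries came from. A separate set of 12 ATAC-seq libraries, which map open chromatin, came from BM and spleen cells sorted as CSF1R+ or CSF1R- (3 libraries of each kind). The labels call these cells macrophages, and the study's results call them B-cell precursors (BMBP) of naive mice.

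C1q is the recognition unit of the classical complement pathway. It is built from A, B and C chains, each with a collagen-like stalk and a globular head, and it binds antibody complexes, dying cells and debris, after which the serine proteases C1r and C1s cleave the next components. Unlike most complement proteins, which the liver makes, C1q comes mainly from macrophages and related myeloid cells, and C1q transcripts are widely used to mark resident and tumor-associated macrophage populations.

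The genes lie side by side on the minus strand of mouse chromosome 4 (GRCm38, the assembly of mm10; GENCODE annotation). C1qb (ENSMUSG00000036905.8) was annotated at chr4:136880129-136886187, C1qc (ENSMUSG00000036896.5) at chr4:136889804-136893065 and C1qa (ENSMUSG00000036887.5) at chr4:136895917-136898803. The locus spanned 18675 bases, with gaps of 3616 bases between C1qb and C1qc and 2851 bases between C1qc and C1qa. RefSeq promoter sequence (GRCm38.p6) was matched for 2 of the 3 members and is shown because the 3 transcripts moved together in the data below. The stretches are upstream of a start site, minus strand, 250 bases for C1qb (chr4:136886201-136886450) and 99 bases for C1qc (chr4:136893066-136893164). The C1qb stretch ends at the RefSeq start site (base 136886200), whereas the C1qc stretch ends at the GENCODE start site (base 136893065), which lies upstream of the RefSeq one (base 136892914). Capitals mark ACTTCCT, which is AGGAAGT, a core of the kind bound by ETS factors such as PU.1, read on the other strand, and TGCTGA, a core of the kind bound by MAF factors.
C1qb: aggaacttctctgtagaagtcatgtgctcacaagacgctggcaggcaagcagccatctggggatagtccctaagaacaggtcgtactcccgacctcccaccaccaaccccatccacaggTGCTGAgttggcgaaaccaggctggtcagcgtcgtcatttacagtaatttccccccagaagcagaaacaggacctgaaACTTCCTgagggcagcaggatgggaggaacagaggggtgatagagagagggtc
C1qc: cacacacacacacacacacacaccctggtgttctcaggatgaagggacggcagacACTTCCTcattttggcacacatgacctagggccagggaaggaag

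In C1qb the ETS core began 53 bases and the MAF core 131 bases before the RefSeq start site, and in C1qc the ETS core began 195 bases before the RefSeq start site, upstream of the GENCODE one as well. Searched on both strands over windows of 300 bases, AGGAAGT was present in 9.35% and TGCTGA in 19.5% of 32851 mouse promoters, so neither is rare. The letters CACGTG (in 7.15% of promoters) and TATAAA (in 13.6%) were not found in either sequence. These matches are descriptions of the letters in the window and not of factor binding.

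All values of expression are corrected counts, the transcript counts of each cell after the authors' SCTransform correction for depth, averaged over the cells of a library. The libraries held 4846 to 5389 cells in culture and 2318 to 3180 cells from tumor, with median totals of 18350 to 19469 and 7651 to 8266 corrected counts per cell. The culture and tumor tables were corrected separately, so no test was made between them and levels set side by side are not on a shared scale. The study's methods do not say whether the libraries within a table were corrected together, so a shared scale within a table is assumed here. Between 3 and 28 cell barcodes per library were also present in another library. Macrophage markers were high in B-MF (summed mean of 8 markers 280 and 273) and Mo-MF (621 and 613), whereas the 6 B-cell markers summed to 0.490 and 0.459 in B-MF and to 0.158 and 0.135 in Mo-MF. The apolipoprotein gene Apoe alone made up most of each macrophage sum and was lower in B-MF, as given below. The macrophage sums therefore do not rank the cultures by their other markers. In the tumor, 36.9, 63.2, 48.6 and 56.5% of the cells of libraries 2 to 5 fell in neutrophil-like clusters and 60.0, 30.5, 43.4 and 36.5% in monocyte/macrophage-like clusters, so these libraries were not macrophages alone. Neutrophil-like clusters also held 10.3 and 9.5% of Mo-MF and at most 0.1% of B-MF cells. The sources used here do not say that the 2 libraries of a culture came from separate animals or cultures, so p-values measure only the spread between these samples.

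B-MF carried more of every C1q chain than Mo-MF. In B-MF replicates 1 and 2 the mean level of C1qa, the A chain, was 21.8 and 20.3 corrected counts per cell, against 10.7 and 10.5 in Mo-MF. C1qb, the B chain, was at 28.0 and 26.7 in B-MF against 15.7 and 15.1 in Mo-MF. C1qc, the C chain, was at 32.3 and 31.0 in B-MF against 16.3 and 16.2 in Mo-MF. Within each group the 2 libraries lay close together. Fitted with limma on log2(mean + 0.1) over 8633 genes, those whose mean reached 0.1, C1qa was higher in B-MF by 0.98 (SE 0.056, 95% interval 0.85 to 1.11, adjusted p = 4.82e-06), a ratio of means of 1.98. For C1qb the log2 difference was 0.82 (SE 0.053, 95% interval 0.70 to 0.95, limma adjusted p = 9.95e-06) and the ratio 1.78, and for C1qc 0.96 (SE 0.051, 95% interval 0.84 to 1.08, limma adjusted p = 3.57e-06) and 1.95. All 3 chains were therefore called higher in B-MF, where 22.6% of all genes tested were called higher and 16.9% lower (39.5% in either direction). Ordered by the difference, C1qa, C1qc and C1qb stood at places 92, 99 and 137 of the 8633 genes.

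Taken as a sum, C1q stood at 80.1 ± 2.90 corrected counts per cell in B-MF (SD, n = 2) and 42.3 ± 0.665 in Mo-MF (SD, n = 2). This was 0.43 and 0.42% of all corrected counts in the B-MF libraries and 0.22% in both Mo-MF libraries. The median cell held 46 and 45 C1q counts in B-MF and 18 in both Mo-MF libraries, so the median showed the same order as the mean. With the culture cells limited to those with at least 3000 detected genes, the differences were 0.83 for C1qa, 0.69 for C1qb and 0.83 for C1qc and all remained called (limma). Without the clusters named as other cell types, the neutrophil-like ones included, they were 0.93, 0.78 and 0.91.

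**Figure D1:**
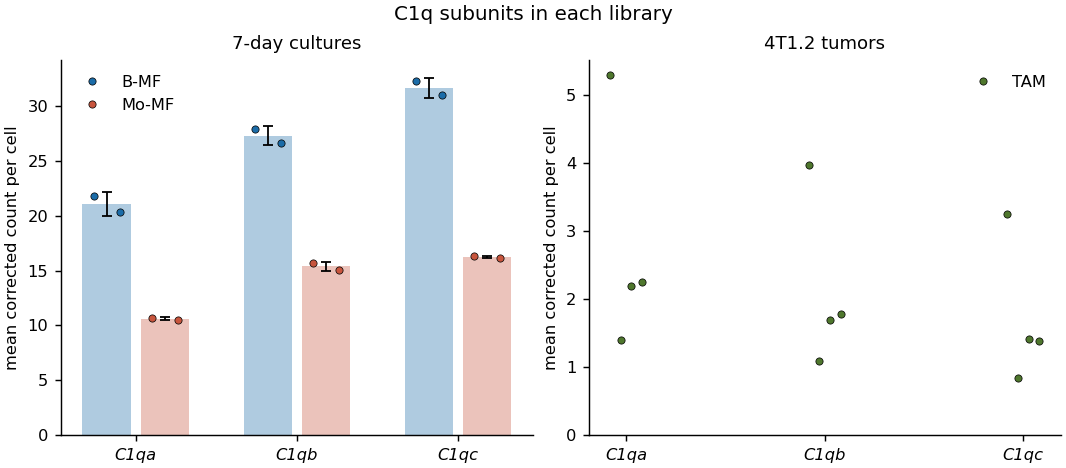
Mean corrected counts per cell (vertical axis) of C1qa, C1qb and C1qc, one point per library, for B-MF, Mo-MF and TAM, with bars at the mean and error bars of 1 SD for the cultures (n = 2). The B-MF points lie above the Mo-MF points for each chain, and TAM library 2 lies above the other 3 TAM libraries, which were corrected in a separate table.

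TAM libraries carried C1q at lower values of their own scale and differed among themselves. The mean C1q sum was 12.5 in library 2, 3.31 in library 3, 5.29 in library 4 and 5.40 in library 5. C1qa was at 5.28, 1.39, 2.19 and 2.24, C1qb at 3.97, 1.09, 1.69 and 1.77, and C1qc at 3.25, 0.833, 1.41 and 1.38. Library 2 was highest for each chain, with a sum 2.68-fold the mean of the other 3 libraries, and the median cell of every library held no C1q count. The tumor libraries could not be tied to single samples of the labels, so their values are given one by one, without a standard deviation. Library 2 also had the largest share of monocyte/macrophage-like cells, and within those cells it was the highest, at 18.3 against 5.68, 8.64 and 9.52. At a clustering resolution of 0.25 instead of 0.5 these levels were 6.87 against 2.83, 3.49 and 3.77, in the same order. The clusters within this class also took different shares of it in each library, and the part of cell makeup in the level of library 2 was not tested. In bulk or in a library mean, fewer C1q cells and less C1q RNA per cell cannot be told apart, so cells were examined next.

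Most cultured cells held counts of all 3 chains, whereas most tumor cells held none. These shares are not on a shared scale. The tables were corrected separately, median totals were 18350 to 19469 in culture and 7651 to 8266 in the tumor, and many tumor cells were neutrophil-like. The part of these differences in the contrast was not tested. All 3 chains were detected in 78.0 and 81.9% of B-MF cells and in 64.3 and 65.6% of Mo-MF cells, and no chain in 4.6 and 2.6% of B-MF and 7.7 and 7.5% of Mo-MF cells. In TAM libraries 2, 3, 4 and 5, 23.3, 10.5, 14.3 and 15.8% of cells held all 3 chains and 56.7, 67.3, 66.3 and 64.5% held none. Cells with a single chain were 5.4 to 12.9% of the culture libraries and 12.7 to 14.3% of the tumor libraries, and cells with 2 chains 10.2 to 15.8% and 5.7 to 7.9%.

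Shares of cells in culture moved with the number of genes detected in a cell, and presence of a count was not particular to macrophage-like cells. In Mo-MF at least 1 C1q count was found in 95 and 95.5% of neutrophil-like cells (median total 17464 and 17843) and in 92.1 and 92.2% of monocyte/macrophage-like cells (median total 19492 and 19359), so in culture the share of cells with a count does not separate expression from background. The mean C1q sum of Mo-MF was 28.6 and 30.5 in neutrophil-like against 44.7 and 43.3 in monocyte/macrophage-like cells. At a clustering resolution of 0.25 instead of 0.5 it was 11.9 and 12.9 against 45.7 and 43.9, so the gap between these classes depended on the clustering, and no background level was measured in culture. Among culture cells with fewer than 3000 detected genes, at most 0.54% of any bin of cells had a C1q sum of 0, whereas 6.4 to 11.8% of cells with at least 4000 detected genes did, although the latter cells held more genes. Cells under 3000 detected genes made up 13.2 and 27.2% of the B-MF libraries and 20.8 and 20.9% of the Mo-MF libraries. Among cells with at least 3000 detected genes, all 3 chains were found in 74.8 and 75.6% of B-MF and 55.4 and 56.9% of Mo-MF cells, so the order of the groups was kept. In the tumor, among cells with at least 1500 detected genes, the shares with all 3 chains were 27.8, 13.6, 17.2 and 19.2%.

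**Figure D2:**
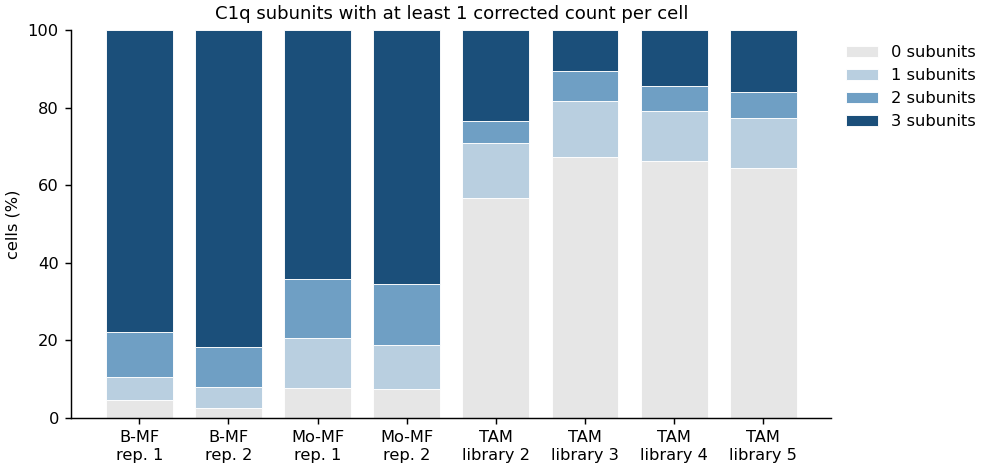
Percent of the cells of each library (vertical axis) with counts of 0, 1, 2 or 3 C1q chains. Cells with all 3 chains were the largest class in the 4 culture libraries (64.3 to 81.9%), and cells with none were the largest class in the 4 TAM libraries (56.7 to 67.3%). Culture and TAM libraries were corrected separately and differ in depth, so their shares are not on a shared scale.

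C1q was spread unevenly over cells, and most so in the tumor, whose counts are on a scale of their own. The 10% of cells with the highest sums held 37.5 and 36.0% of all C1q counts in B-MF, 43.8 and 42.4% in Mo-MF, and 72.4, 81.1, 83.0 and 81.7% in TAM libraries 2 to 5. The highest single cell held 690 C1q counts in B-MF replicate 1 and 226 in the tumor, in library 5.

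The chains rose and fell together from cell to cell. Spearman's rho between any pair of chains over the 5237 and 5326 cells of the B-MF libraries was 0.81 to 0.89, and over the 4846 and 5389 cells of the Mo-MF libraries 0.77 to 0.86. C1qb and C1qc were the most closely related pair in each culture group (0.89 in B-MF, 0.86 in Mo-MF). In TAM rho was 0.60 to 0.82, lowest in library 3 and highest in library 2, whereas monocyte/macrophage-like clusters alone gave 0.76 to 0.89. The points of a library share its depth and correction, and these values are descriptions without a test. Spearman's rho of the C1q sum with the number of detected genes was low, from -0.20 to -0.03 in culture and from -0.02 to 0.02 in the tumor. A low rho does not mean an even level. In B-MF replicate 1 the mean sum was 74.0 at 2500 to 3000 detected genes, 113 at 3000 to 3500 and 66.2 at 4000 and over. In TAM library 2 it was 4.34 under 1500 detected genes, 20.3 at 2000 to 2500 and 11.6 at 3000 and over.

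The makeup of the C1q transcripts differed more between the tables than between the cultures. C1qa made up 26.6 and 26.0% of the summed C1q counts in B-MF, 25.1 and 25.2% in Mo-MF, and 42.3, 42.0, 41.4 and 41.5% in TAM. C1qb made up 34.0 and 34.2%, 36.7 and 36.1%, and 31.8 to 32.9%, respectively. C1qc made up 39.4 and 39.7%, 38.2 and 38.7%, and 25.1 to 26.7%. Between the cultures the differences (B-MF minus Mo-MF) were 1.18, -2.27 and 1.09 percentage points for C1qa, C1qb and C1qc, and the exact permutation test gave p = 0.33 for each, two-sided, the smallest value that 2 libraries against 2 allow. The share of each chain spanned less than 2 percentage points over the TAM libraries in spite of their different levels. Whether the shift from culture to tumor came from the separate corrections was not tested.

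Clusters of tumor cells, formed from genes other than C1q, separated a small group with a high C1q level. Cluster 6, of 559 cells, was monocyte/macrophage-like, with all 8 macrophage markers and all 5 proliferation markers above their average over clusters, and held 323, 39, 101 and 96 cells of libraries 2 to 5. Its mean C1q sum was 75, 54.9, 58.5 and 69.5, and 99.1, 84.6, 92.1 and 93.8% of its cells had a C1q count. This cluster held 60.9, 27.9, 46.8 and 41.2% of the C1q counts of its libraries. Besides the C1q genes its leading genes were Ms4a7, a membrane protein of macrophages, Cd72, Cadm1, Slamf9, Ccl12, a monocyte-attracting chemokine, Lpl and the cyclin Ccnd1. Cluster 4, led by MHC class II genes (H2-Eb1, H2-Ab1), Timd4 and Mrc1, followed at 18.7, 11.1, 8.83 and 12.5. The other monocyte/macrophage-like clusters, 1 (led by Sdc1, Inhba, Thbs1 and Arg1) and 3 (led by Tmem176b and Ccr2), lay between 1.23 and 2.19 in every library. Library 2 held 323 of the 559 cells of cluster 6 and was also the highest library within it and within clusters 3 and 4.

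**Figure D3:**
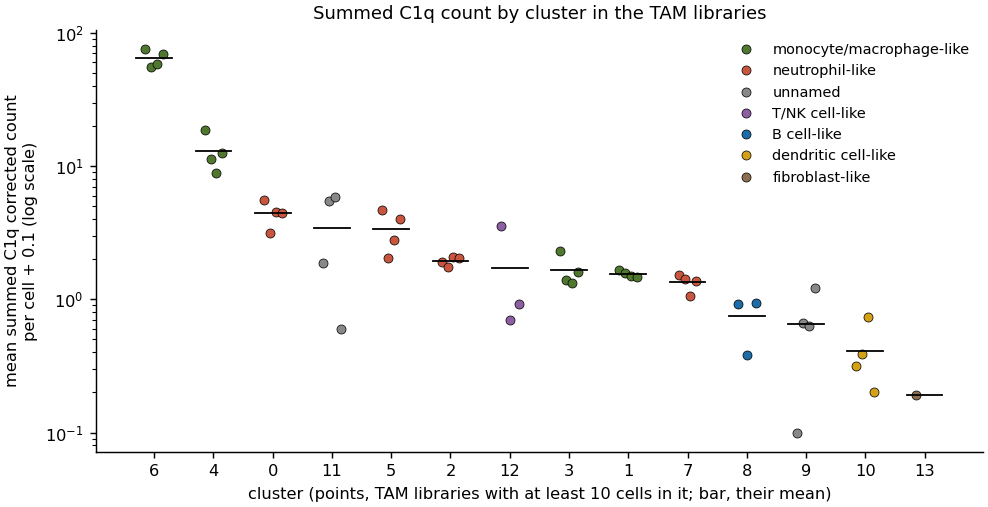
Mean C1q sum in corrected counts per cell (log axis) for the clusters of tumor cells, one point per library with at least 10 cells in the cluster, with lines at their mean. Cluster 6 lies at 54.9 to 75 and cluster 4 at 8.83 to 18.7, above the other named clusters in every library.

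C1q counts were also found in cells outside the monocyte/macrophage-like clusters, which held 88.0, 52.4, 70.9 and 64.3% of C1q counts in libraries 2 to 5. At a clustering resolution of 0.25 instead of 0.5 these shares were 26.1, 24.9, 24.7 and 22.4%, and an unnamed cluster class held 60.4, 25.4, 46.5 and 38.4%. At least 1 count was present in 44.4, 24.6, 30.6 and 29.7% of monocyte/macrophage-like cells (median total 8510 to 8548) and in 44.0, 38.7, 39.5 and 42.0% of neutrophil-like cells (median total 7483 to 7518). The share in B cell-like cells, which should lack C1q, was 11.5, 9.3 and 13% in libraries 3, 4 and 5 (median total 7435 to 7602). In T/NK cell-like cells, which should lack it too, the share was 29.4% of 17 cells in library 2, 16.0% of 25 in library 4 and 27.3% of 22 in library 5 (median total 8069 to 8270), while library 3 held 7 such cells, too few for a share. In dendritic cell-like cells the share was 14.3, 20.8, 22.7 and 10.0% in libraries 2 to 5. With cells thinned to 5000 counts, and no cell left out, the shares were 39.3, 21.5, 26.7 and 25.6% in monocyte/macrophage-like and 40.9, 34.8, 36.4 and 38.4% in neutrophil-like cells, beside 11.5, 6.7 and 11.1% in B cell-like (libraries 3 to 5) and 29.4, 16.0 and 13.6% in T/NK cell-like cells (libraries 2, 4 and 5). In neutrophil-like cells C1qa made up 39.3 to 41.9% of C1q counts, and in monocyte/macrophage-like cells 42.1 to 42.7%. The mean level of neutrophil-like cluster 0 was 5.46, 3.03, 4.44 and 4.37 counts per cell. This was below cluster 4 and above monocyte/macrophage-like clusters 1 and 3 in every library. The rank above clusters 1 and 3 depended on the clustering. At a clustering resolution of 1 most cells of cluster 0 fell in clusters with mean sums of 2.10, 1.91 and 0.872. Monocyte/macrophage-like clusters drawn mainly from clusters 1 and 3 had 0.701 to 3.02. Other cells of cluster 0 joined a mixed unnamed cluster of 562 cells at 19.8. The neutrophil-like level in libraries 2 to 5 was then 1.69, 1.30, 1.39 and 1.64, instead of 3.96, 2.40, 2.99 and 3.31.

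The neutrophil-like cells with counts of all 3 chains (180, 148, 155 and 280 cells) also held other macrophage transcripts. Their mean Apoe, an apolipoprotein of macrophages, was 6.48 to 11.8 over the libraries, against 0.95 to 1.36 in neutrophil-like cells with no chain. Aif1, a cytoskeletal gene of macrophages, was at 3.34 to 3.87 against 0.188 to 0.289, and Ms4a7 at 0.872 to 1.16 against 0.0274 to 0.0370. S100a8, a neutrophil alarmin, remained high, at 336 to 399 against 508 to 568, and the median number of detected genes was 1503 to 1618 against 1296 to 1350. Doublets were not called, and the part of doublets or free RNA in these counts was not tested.

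Within monocyte/macrophage-like tumor cells, the means of Ms4a7, Mrc1, Aif1, Apoe and Cd74 were higher in cells with all 3 chains than in cells with none of the same library, in 4 of 4 libraries, and the means of Csf1r were not. Ms4a7 was at 4.72 to 5.59 in cells with all 3 chains and 0.234 to 0.806 in cells with none, and Mrc1, the mannose receptor, at 2.23 to 3.71 and 0.406 to 0.863, with no overlap between libraries. Aif1 was at 6.94 to 9.41 and 2.48 to 3.98, and Apoe at 23.6 to 38.8 and 13.1 to 17.9, again without overlap. Csf1r, the M-CSF receptor, overlapped at 1.97 to 2.63 and 2.08 to 2.21, and was higher with all 3 chains in libraries 2 and 3 and lower in libraries 4 and 5. Cd74, the invariant chain of MHC class II, was at 33.9 to 45.9 and 28.5 to 41.6. The neutrophil genes S100a8, S100a9 and Csf3r were also higher in cells with all 3 chains in each library. S100a8 was at 39.98 to 88.1 in these cells against 31.4 to 64.8 in cells with none, and S100a9 at 49.05 to 112 against 34.4 to 70.8. Csf3r, the G-CSF receptor, was at 0.801 to 1.85 against 0.726 to 1.09, and, as for Cd74, the ranges of these genes over libraries overlapped. The genes compared here were chosen after their values were seen. The share of all genes that were higher in cells with all 3 chains in each library was not computed. The order is therefore not shown to be particular to these genes. The part of doublets or free RNA in these values was not tested.

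In culture the 2 main B-MF clusters differed in C1q. Cluster 1, led by MHC class II genes, Cd74 and Ier3 (1857 and 2062 B-MF cells), had a mean C1q sum of 119 and 111, and cluster 0, led by Cdkn2a, Myc and Id3 (2483 and 2490 cells), one of 67.4 and 58.0. Over the cells of all culture libraries, the median number of detected genes was 3174 in cluster 1 and 4077 in cluster 0. The part of detected genes in the C1q difference was not tested. The 3 main Mo-MF clusters were at 53.5 and 52.7 (cluster 2, led by Mmp14 and Apoe), 46.8 and 44.3 (cluster 4, led by Ly6a and Ccl7) and 36.5 and 32.8 (cluster 3, led by Bex1 and Arg1). At the clustering used here both B-MF clusters were above all 3 Mo-MF clusters in every library. Neutrophil-like clusters of Mo-MF ranged from 5.93 to 47.5. The highest of them, cluster 8 (47.1 and 47.5), was above Mo-MF clusters 3 and 4 in both libraries. The order of B-MF and Mo-MF clusters changed in part at a clustering resolution of 1. An unnamed cluster of 991 cells, nearly all from cluster 0, then had a mean C1q sum of 24.3. Clusters drawn mainly from the 3 main Mo-MF clusters were at 34.6 to 59.2. The other clusters drawn mainly from clusters 0 and 1 were at 64.7 to 120.

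The partners of C1q were scarce in all libraries. C1ra, the protease C1r, was at 0.0886 and 0.0734 in B-MF against 0.123 and 0.118 in Mo-MF, lower in B-MF by limma (log2 -0.29, SE 0.058, adjusted p = 0.0054). This call was lost with a pseudocount of 1 (log2 -0.052, limma adjusted p = 0.12). In TAM C1ra was at 0.0148, 0.00561, 0.0201 and 0.0090. C1s1, the protease C1s, did not exceed 0.00191 in culture or 0.0142 in the tumor, and Serping1, the C1 inhibitor, did not exceed 0.00497 or 0.112. The other 5 of the 6 partner genes were below the filter in culture, so their difference was not tested.

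Of the complement components downstream or beside C1q, 12 of 22 were in the culture table and 4 passed the filter, with 3 called higher and 1 lower in B-MF (median log2 0.99, against 0.025 over all genes tested, of which 22.6% were called higher and 16.9% lower). Cfp, or properdin, which stabilizes the alternative convertase, was at 19.7 and 19.3 in B-MF against 8.12 and 8.11 in Mo-MF (log2 1.25). Fcna, a ficolin, was at 0.496 and 0.431 against 0.0790 and 0.0733 (log2 1.68). C3, the central component, was at 0.347 and 0.306 against 0.539 and 0.444 (log2 -0.47, limma adjusted p = 0.0029), but with neutrophil-like and other named clusters removed its log2 difference was 0.090 (limma adjusted p = 0.42).

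Of 16 receptors of C1q and complement fragments, 12 were tested, 7 were higher in B-MF, 4 lower and 1 was not called (median log2 0.25), where 22.6% of all genes tested were higher and 16.9% lower. C5ar1, the C5a receptor, was at 2.70 and 2.58 in B-MF against 1.69 and 1.60 in Mo-MF (log2 0.65), and Lrp1, an endocytic receptor of dying cells, at 5.22 and 5.16 against 3.48 and 3.44 (log2 0.57). Itgax, the CD11c integrin chain, was at 0.331 and 0.297 against 0.939 and 0.902 (log2 -1.30), and Scarf1, a scavenger receptor that binds C1q, at 0.103 and 0.0912 against 0.385 and 0.376 (log2 -1.29). Cd59a, which blocks the membrane attack complex, was the 1 regulator of 9 that passed the filter, and it was higher in B-MF (log2 0.37).

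Genes that modify or fold collagen-like chains, which the C1q stalk needs, were called in both directions. Of 17 collagen modification and folding genes 10 were tested, with 5 higher, 3 lower and 2 not called (median log2 0.14), beside 22.6% higher and 16.9% lower over all genes tested. P4ha2, a prolyl hydroxylase subunit, was at 0.180 and 0.148 in B-MF against 0.0646 and 0.0601 in Mo-MF (log2 0.70), while Plod1, a lysyl hydroxylase, differed by 0.36, Ppib, a prolyl isomerase, by 0.28 and P3h3, a prolyl hydroxylase family member, by -0.38. Of 26 genes of the C1q-domain family 4 were tested, and C1qtnf6 alone was called (log2 0.33, limma adjusted p = 0.0051), which was lost without a filter on low values (limma adjusted p = 0.060).

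Macrophage genes often seen with C1q were called in both directions. Of 24, 20 were tested, 11 were higher in B-MF, 6 lower and 3 not called (median log2 0.45), against 22.6% higher and 16.9% lower among all genes tested. Pf4, a platelet-type chemokine also made by macrophages, was at 143 and 140 in B-MF against 32.3 and 29.6 in Mo-MF (log2 2.19). Apoe moved the other way, at 146 and 139 against 507 and 499 (log2 -1.82). Cd81, a tetraspanin, was higher by 1.76, and Axl, a receptor for dying cells, was lower by limma (log2 -1.36).

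Of 16 transcription factors of macrophages, 15 were tested, 6 were higher, 8 lower and 1 was not called (median log2 -0.17), again beside 22.6 and 16.9% of all genes tested. Id3, an inhibitor of E proteins, was at 2.65 and 2.25 in B-MF against 0.0431 and 0.0494 in Mo-MF (log2 4.12). Maf was higher in B-MF (8.28 and 8.37 against 4.35 and 4.38, log2 0.92). Klf2 (log2 1.09), Klf4 (0.59), Tfec (0.52) and Id2 (0.51) were also higher, and Bhlhe40 (-1.16), the sterol sensor Nr1h3 (-0.66), Bhlhe41 (-0.55) and Cebpa (-0.47) lower. Irf8 and Cebpb (both -0.21) and Mitf (-0.17) had smaller differences, and each lost its call in at least 1 alternative setting. Cebpb differed by 0.029 with the named clusters of other cell types removed. Spi1, which encodes PU.1, was at 6.35 and 6.26 against 6.68 and 6.55 (log2 -0.068, limma adjusted p = 0.32).

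**Figure D4:**
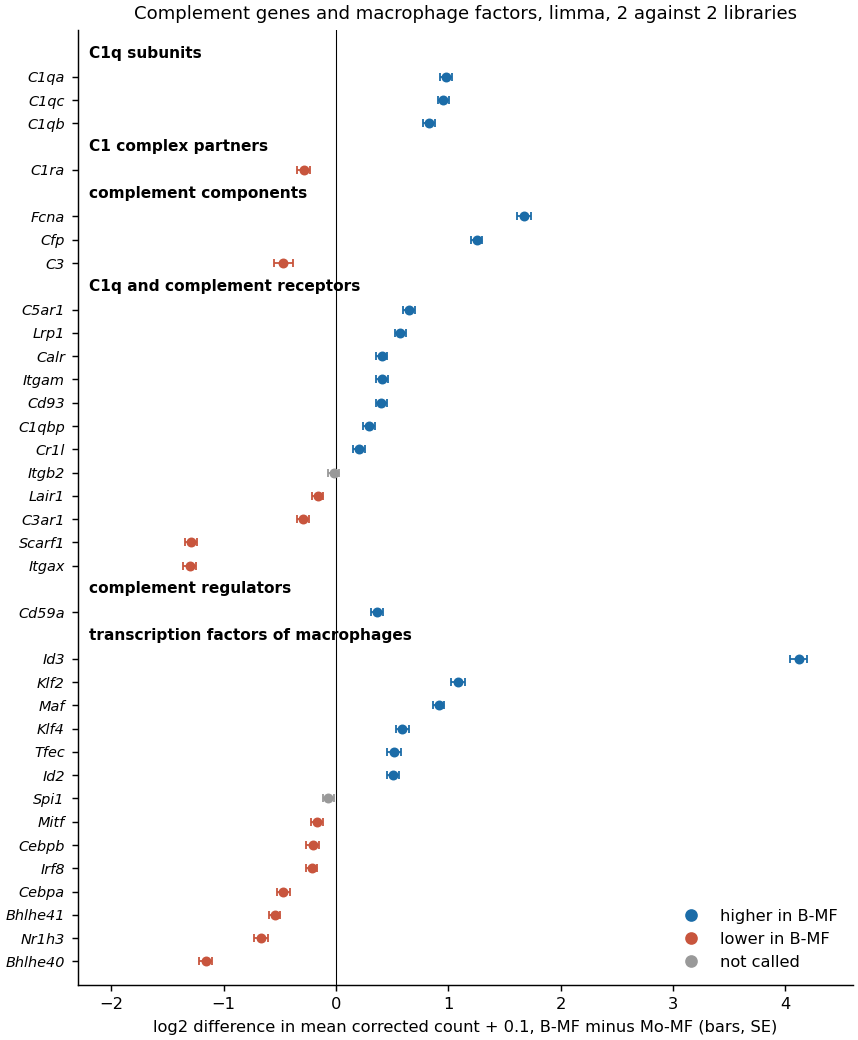
Log2 difference B-MF minus Mo-MF on the log2(mean + 0.1) scale (axis) of tested genes, grouped by list, with bars of 1 SE. The 3 C1q chains lie at 0.82 to 0.98, while the receptor and transcription factor lists extend on both sides of 0.

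The genes whose counts followed the C1q sum from cell to cell were partly shared between groups. Genes were ranked by the lowest Spearman's rho over the libraries of a group, among 7964 genes in B-MF, 8230 in Mo-MF and 4757 in TAM found in at least 10% of cells. In B-MF the first 10 were Pf4 (rho 0.45 to 0.47), Aif1 (0.42), Ifitm2 (0.39 to 0.40), Cfp (0.39 to 0.42), Fcgrt, the neonatal Fc receptor (0.39 to 0.43), Trf, transferrin (0.38 to 0.43), Ly86 (0.37 to 0.39), Ctsc, Clec4n and Ier3. In Mo-MF they were weaker and led by Ly86, a partner of the receptor RP105 (0.33 to 0.37), Aif1 (0.30 to 0.34), Gas6, a bridge to dying cells (0.30), Csf1r (0.26 to 0.27) and Cfp (0.26 to 0.27), with Fcgr2b, Apoe and Fcgrt also among the first 10. In TAM they were Ms4a7 (0.34 to 0.43), Aif1 (0.33 to 0.43), Cd63 (0.24 to 0.37), Pf4 (0.24 to 0.33), AW112010, Cxcl16, Fabp5, Apoe, Cd74 and Mif.

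Aif1 was the only gene among the first 10 of all 3 groups. B-MF and Mo-MF shared 4 of 10 (Aif1, Cfp, Fcgrt and Ly86), B-MF and TAM shared 2 (Aif1 and Pf4), and Mo-MF and TAM shared 2 (Aif1 and Apoe). Pf4 had a lower rho in Mo-MF (0.12 to 0.13), as did Cfp in TAM (0.10 to 0.26). Cd81 ran against C1q in B-MF (-0.19) and with it in TAM (0.19 to 0.45). Csf1r was within -0.05 to 0.07 in TAM. A lowest rho over 0.3 was reached by 19 genes in B-MF, 1 in Mo-MF and 2 in TAM over all cells, and by 17, 1 and 7 genes within monocyte/macrophage-like cells. Within the latter cells Mo-MF and TAM shared only Aif1 among their first 10, and Apoe was no longer shared. The genes that B-MF shared with either group were unchanged.

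The genes most opposed to C1q also differed between groups. In B-MF they were Vim, the filament vimentin (-0.40 to -0.38), Lgals3, a galectin (-0.34), Cd36, a lipid scavenger receptor (-0.34 to -0.32), Mmp12 and Capg. In Mo-MF they were Fth1 and Ftl1, the ferritin chains (-0.23 and -0.23 to -0.21), Maoa (-0.24 to -0.23), S100a11 and Anxa1. In TAM they were S100a4 (-0.27 to -0.19), Vcan (-0.25 to -0.19), Napsa, Itgb7 and Fn1. Within monocyte/macrophage-like tumor cells Ms4a7 (0.42 to 0.49), Cd63 (0.35 to 0.51), Aif1 (0.34 to 0.42), Lgmn (0.32 to 0.44) and Cd81 (0.31 to 0.53) led, followed by Ccnd1, Pf4, Cxcl16, Hpgds and Mrc1. Opposed to C1q in these cells were S100a4 (-0.46 to -0.33), Alox5ap (-0.44 to -0.31), S100a10 (-0.44 to -0.30), Tmsb10 and Plac8 (-0.52 to -0.29).

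**Figure D5:**
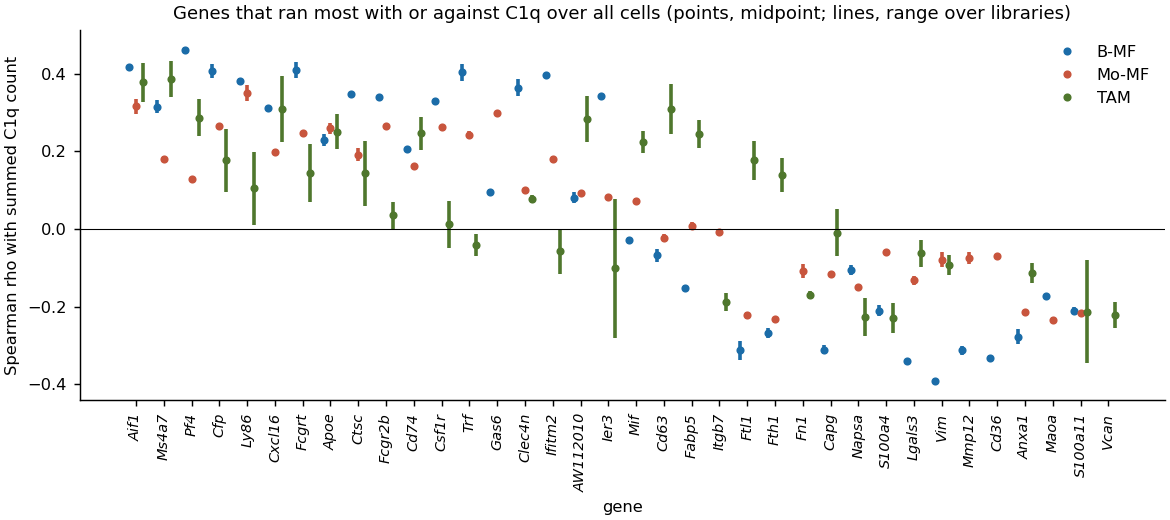
Spearman's rho of genes with the C1q sum over all cells (vertical axis) for B-MF, Mo-MF and TAM, with points at the middle of the range over libraries and lines along that range. Aif1 lies at 0.30 to 0.43 in every library, and Pf4 at 0.45 to 0.47 in B-MF and 0.12 to 0.13 in Mo-MF.

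In freshly sorted BMBP, the chromatin of the C1q locus gave no ATAC-seq peak. None of the 12 libraries (43407 to 76530 peaks each) had a peak within 1 kb of the start site of C1qa, C1qb or C1qc, where 49.7 to 58.4% of 21938 protein-coding start sites had one in a given library and 61.1% in at least 1 library. The count was also 0 of 12 libraries for each gene within 5 kb. It was 0 within 250 bases and with peaks of a -log10 q of at least 5 as well, which follows from the lack of a peak within 1 kb. The nearest peak in the 6 BM libraries lay 44769 to 44845 bases from the start of C1qb, between genes and 5.19 kb from Ephb2 (in CSF1R+ BM replicate 1 at chr4:136841180-136841413). Its fold enrichment was 7.64, 8.33 and 9.07 in CSF1R+ BM and 6.45, 5.72 and 7.54 in CSF1R- BM. The lowest CSF1R+ value, 7.64, lay just above the highest CSF1R- value, 7.54. The share of all peaks that separate these groups in the same way was not computed. The order was seen after the fact and not tested, and 3 libraries against 3 cannot give an exact two-sided p below 0.1. In the 6 spleen libraries the nearest peak was that at the start of Zbtb40, 149482 to 149559 bases from the start of C1qa. In CSF1R+ BM replicate 1, where 56.5% of start sites had a peak within 1 kb, 15 of the 16 transcription factors of macrophages had one, Spi1 and Maf among them. In the same library so did 12 of 16 receptors, 11 of 24 macrophage genes and 4 of 21 complement components. Peaks are thresholded calls, so the lack of one is not a measurement of closed chromatin, and no ATAC-seq library of B-MF, Mo-MF or TAM was analysed here.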

How the data were processed

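Single-cell suspensions were run with 10x Genomics 3′ chemistry by the authors, and reads were counted with Cell Ranger (STAR), per the labels. The authors corrected the counts with SCTransform in Seurat and deposited the natural log of 1 plus the corrected count for each gene and cell. The 4 culture libraries share a table, and the 4 tumor libraries share another. Whether the libraries of a table were corrected together is not stated in the study's methods. Each value was turned back into the corrected count, which was a whole number for each gene and cell within 1e-06. Because corrected counts are not raw counts, no count model was used. The tumor libraries are numbered otherwise than the labelled samples and were matched to the group TAM, not to single samples.

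Library means were compared with limma 3.58.1 in R 4.3.3 on log2(mean + 0.1), for genes whose mean over the 4 culture libraries reached 0.1, B-MF against Mo-MF, with Benjamini-Hochberg adjusted p-values and a threshold of 0.05. On data simulated from these means the same fit recovered 100% of 100 genes changed by 1 and 100% of 100 changed by 2 on the log2 scale among 8633 genes, and 2.91% of its calls were false. The simulated noise was independent and drawn from the variances of this fit, so the outcome was largely set in advance. It checks that the fit runs as intended and gives no error rate for the calls in the real data. Means over cells do not carry depth or cell number into the fit.

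Cells were clustered without the C1q genes (leidenalg 0.10.2, resolution 0.5, with 0.25 and 1 as alternatives) and named from marker lists. No doublet caller was run, and no cell was removed beyond the authors' filter. Spearman's rho was taken over the cells of each library. The 95% intervals are those of limma and rest on the spread between libraries, and shares of cells are given without an interval.

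For ATAC-seq, per the labels and methods, the authors trimmed reads with cutadapt, aligned them to mm10 with BWA and called peaks in each library with MACS2; the deposited files give the fold enrichment, the −log10 p-value and −log10 q-value, and a whole-number score for each peak. A start site counted as having a peak when one lay within 1000 bases. The deposited list of peaks pooled over libraries was not used.

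The members, gene lists and rules were chosen with earlier results of these data known. Named genes are the 3 C1q genes, up to 4 called genes of each list with the largest difference, every tested C1 partner and transcription factor, and the 10 genes that followed and 5 that opposed C1q most in each group. A few leading genes of clusters, and the genes compared between cells with all 3 chains and cells with none, were chosen after their values were seen. A few genes that the rule names are not reported here. Same-numbered B-MF and Mo-MF libraries share only a number. Alternatives were other pseudocounts, the deposited log values, equal totals, no filter, fewer cell types, each library left out and, added after the data were seen, cells with at least 3000 (culture) or 1500 (tumor) detected genes.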

Additional observations from a re-analysis of the deposited data

Results flagged for a closer look

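In sets of 4 TAM libraries, Dixon's test was applied to 82 measures of C1q and its followers, and 3 stood out. Chance alone marks about 1 in 20 such sets, so 3 of 82 is no more than that share. All 3 concern library 2, which also had the highest C1q level and the most monocyte/macrophage-like cells. The 10% of cells with the most C1qa held 73.3% of C1qa counts in library 2, against 83.8 to 84.8% in libraries 3, 4 and 5. For C1qc the value was 75% in library 2, against 84.8 to 86.3%. Spearman's rho of Vcan, which encodes the matrix proteoglycan versican, with the C1q sum over all cells was -0.25 in library 2 and -0.20 to -0.19 in the others. The part of cell composition in these values was not tested.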

How the results depend on the processing

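Each of the 3 C1q chains kept its call in all 12 alternatives, with differences of 0.69 to 1.03. Of 572 recomputed values, 540 were counted as unchanged, 16 moved, 13 lost their call and 3 reversed. List genes made up 405 of the 572, and 389 of these were unchanged. Only values of single genes were judged by direction and side of the threshold. Counts, levels, correlations and shares were judged by whether they stayed close to the main value or kept their sign or order. Some of them could not have been counted as changed. Levels and correlations without 1 library were judged against the SD that included that library. The mean TAM level went from 6.63 to 4.66 without library 2 and was still counted as unchanged. No peak within 1 kb also means none within 250 bases or under a stricter q. The number unchanged therefore overstates what was put to a test. Without 1 library at a time, 1112 to 3855 genes were called higher (1955 with all) and 863 to 2950 lower (1458 with all): without Mo-MF replicate 1 the counts were 1128 and 863, without Mo-MF replicate 2 1112 were higher, without B-MF replicate 2 3855 were higher and without B-MF replicate 1 2950 were lower. Calls of list genes lower in B-MF ranged from 14, without Mo-MF replicate 1, to 24 (22 with all). With the lone library of a group assumed to vary like the others, these counts rest on few degrees of freedom. With the replicate block, 2238 genes were higher and 1670 lower; the deviations of same-numbered libraries correlated at 0.126 over 8633 genes in 2 pairs, and the block changed no C1q call. Without the clusters named as other cell types, C3 reversed to 0.090, Spi1 to 0.0067 and Cebpb to 0.029. Calls of Cebpb, Mitf, Irf8, C1ra, C1qtnf6 and C3 were lost in at least 1 setting. At resolution 0.25 the C1q-richest tumor cells joined an unnamed cluster, and the monocyte/macrophage-like TAM level was 4.24 instead of 10.5. The share of cells with C1q was 91.8% in B-MF, 84.7% in Mo-MF and 22.9% in TAM with at least 3 counts, instead of 96.4, 92.4 and 36.3%, and in Mo-MF 90.2% after thinning and 90.4% in cells with at least 3000 genes. The mean rho between chains in TAM was 0.71, and 0.85 as Pearson's r of the log values, 0.83 in monocyte/macrophage-like clusters and 0.80 in cells with at least 1500 genes. Under Pearson's r 6 of the 10 genes that followed C1q in TAM were kept. Of the 6 C1 partners 5 lay below the filter of 0.1 counts per cell in culture and were not tested; whether more depth would change this was not tested.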

Other observations

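At resolution 1 of the clustering, 562 tumor cells formed a mixed cluster without a name, drawn mostly from neutrophil-like clusters 0 and 5 and in part from the C1q-rich cluster 6, with a mean C1q sum of 19.8. At resolution 0.25 the C1q-rich cells joined osteoclast-gene cells in an unnamed cluster of 601 cells with a mean of 62.0. Within the tumor, C3 ran weakly against C1q in every library (rho -0.14 to -0.05 over all cells), while Fcna ran with it (0.15 to 0.23). In B-MF Fcna did not (-0.03 to -0.02).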
